A study of Mus musculus with 4 samples.

Results

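Rtp4, Xaf1, Ifi44, Lgals3bp and Samhd1 are interferon-stimulated genes of unrelated families, each at a chromosome position of its own. They were taken from a table of 17576 expressed loci, of which 15883 carry a transcript ID, by position on the mouse mm9 genome, and each gene was met by exactly 1 locus with a transcript ID. The table compares a naive and a pretreated culture of mouse embryonic fibroblasts (MEFs), both collected once 100 U/ml of interferon-beta had acted on them for 1 h. The labels call the first culture naive and the second pretreated, and they give neither the duration of the pretreatment nor the gap that followed it. Both cultures come from C57BL/6 mice with an H3.3-HA knock-in, in which a cDNA for epitope-tagged histone H3.3 takes the place of the H3f3b locus, so the naive control carries this allele too. MEFs are primary fibroblasts grown from embryos. The design has 4 groups of 1 library, and the 2 libraries taken at 0 h were not analysed here. From the 2 libraries used, a level already raised before the hour of stimulation and a stronger response during that hour therefore cannot be told apart. No value below has a replicate error or a replicate check.

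Interferon-beta binds a receptor whose kinases activate transcription factors that enter the nucleus and bind interferon-stimulated response elements near gene starts. The products of the genes switched on in this way act against viruses at many steps, from entry to replication and cell death. Fibroblasts are classical responders to this cytokine.

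Of the 5 genes, 3 had at least 2-fold higher values in the pretreated library (Lgals3bp, Ifi44 and Xaf1), 0 had at least 2-fold lower values, and Rtp4 and Samhd1 lay within 2-fold. Fold calls were made on the difference of log2(FPKM + 1), where FPKM is the number of fragments scaled by transcript length and by sequencing depth. Over all 10228 loci with a mean of at least 1 FPKM, 2.83% passed 2-fold on the higher side and 7.12% on the lower side, and all 5 genes passed this minimum. The median change was 3.18 for the 5 genes and -0.16 for all loci compared. The genes were chosen with earlier results of these data known, so this count describes them and tests nothing.

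Sequences near the gene starts are shown for the letters through which interferon-activated factors are known to bind DNA. RefSeq promoters (build GRCm38.p6, from 250 bases before each start to just after it, 300 bases in all) were found for 4 of the 5 genes. The core of the interferon-stimulated response element, searched on both strands as GAAA, any 2 bases and GAAA again, occurred in 0 of these 4 and in 3.44% of all 32851 promoters of that length. A shorter form, AAANNGAAA (TTTCNNTTT on the other strand), was searched after that result was known. It occurred in the promoters of Ifi44, Xaf1 and Lgals3bp and not in that of Samhd1, and in 10.6% of all promoters; every match to the longer core also holds it. A spaced palindrome, TTCNNNGAA, which is its own reverse complement, occurred in the Samhd1 promoter alone of the 4 and in 8.30% of all promoters, and the same outer letters with 1 more base between them in 0 of the 4 and in 6.95% of all. Each match is printed within 30 bases of gene strand, with the matched letters in capitals.
Ifi44, chr3:151749946-151749975, minus strand: gtatacagagTTTCAGTTTtcgtttcccga
Xaf1, chr11:72301599-72301628, plus strand: gctgggcaaacacTTTCAGTTTtgttttcc
Lgals3bp, chr11:118401960-118401989, minus strand: tcatgtgttttctgaAAATCGAAActaggt
Samhd1, chr2:157135312-157135341, minus strand: acaccaccctTTCGGAGAAacacaagggcg
The matches begin 55 bases before the RefSeq start in Ifi44, 17 in Xaf1, 15 in Lgals3bp and 235 in Samhd1. Annotated starts vary: in GENCODE M21 the Ifi44 and Lgals3bp matches overlap an exon of a transcript that starts further upstream, and the other matches lie outside any exon of their gene. These are matches of letters and were not tied to any measured binding.

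Lgals3bp, whose product is a secreted glycoprotein that binds galectins, showed the largest change of the 5 genes. Its locus on mm9, chromosome 11 from 118254059 to 118263245, had 64.0 FPKM in the naive library and 944 FPKM in the pretreated library. The pretreated value was 14.7 times the naive one, a gain of 880.3 FPKM and a change of 3.86 on the log2(FPKM + 1) scale. This change ranked 23 among all 10228 loci. By level, Lgals3bp stood at place 994 among 9227 compared loci with a transcript ID in the naive library and at place 139 in the pretreated library. Of the other loci with a transcript ID, 5 combined a pretreated level and a change at least as high.

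Ifi44, an interferon-induced cytoplasmic protein, had the lowest naive level of the 5 genes. Its locus, chromosome 3 from 151393885 to 151412923, had 10.6 FPKM in the naive library and 118 FPKM in the pretreated library. The ratio was 11.2 and the log2 change 3.37, which ranked 41 of all loci. In level it went from place 3497 to place 620 of the 9227 loci with a transcript ID, and 16 others combined a pretreated level and a change at least as high. Its gain of 107.6 FPKM was smaller than that of Rtp4, although its ratio was several times larger.

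Xaf1 encodes a zinc finger protein that binds the apoptosis inhibitor XIAP and favours cell death. Its locus, chromosome 11 from 72115105 to 72127235, carries 3 transcript IDs and had 27.2 FPKM in the naive library and 255 FPKM in the pretreated library. The ratio was 9.36, the gain 227.4 FPKM and the log2 change 3.18, which ranked 45 of all loci. In level it went from place 1900 to place 364, and 10 other loci with a transcript ID were at least as high in both pretreated level and change. The changes of Ifi44 and Xaf1 differed by 0.19 on the log2 scale, and those of Lgals3bp and Xaf1 by 0.68. Without replicates it cannot be said whether these 3 changes differ from one another.

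Rtp4, a chaperone that carries G protein-coupled receptors to the cell surface and also restricts some RNA viruses, had the highest naive level of the 5 genes. Its locus, chromosome 16 from 23601793 to 23614308, had 213 FPKM in the naive library and 363 FPKM in the pretreated library. The pretreated value was 1.70 times the naive one, with a gain of 149.3 FPKM and a log2 change of 0.76. In level Rtp4 was already at place 419 of the loci with a transcript ID in naive cells and was at place 294 in pretreated cells. At least as high in both pretreated level and change were 30 other such loci. Its change ranked 496 of all loci and was 2.42 smaller on the log2 scale than that of Xaf1.

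Samhd1 encodes an enzyme that breaks down deoxynucleotides and thereby limits retroviral DNA synthesis. Its locus, chromosome 2 from 156923265 to 156960958, carries 5 transcript IDs and had 24.6 FPKM in the naive library and 22.3 FPKM in the pretreated library. The ratio was 0.907 and the log2 change -0.13, close to the median of all loci, and it was 0.02 once that median was subtracted. Its place by level was 2035 in naive and 2032 in pretreated cells, and 1148 others were at least as high in both pretreated level and change. Samhd1 was thus nearly level with Xaf1 in naive cells (a ratio of Xaf1 to Samhd1 of 1.11), while in pretreated cells Xaf1 stood 11.4 times higher.

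**Figure D1:**
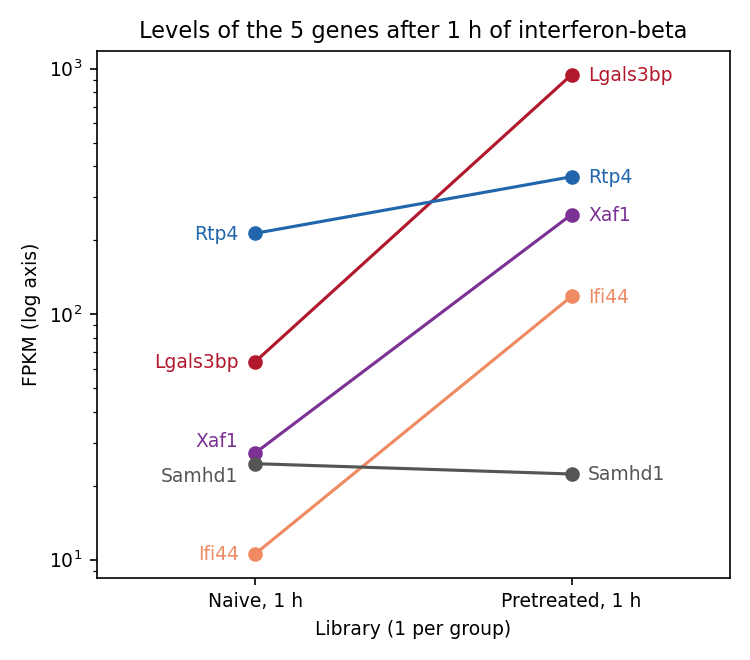
FPKM of the 5 genes (vertical log axis) in the naive and the pretreated library after 1 h of interferon-beta, with 1 library per group and a line joining the values of each gene. Lgals3bp, Ifi44 and Xaf1 climb by ratios of 14.7, 11.2 and 9.36, Rtp4 starts highest and has a ratio of 1.70, and the Samhd1 line is nearly flat at a ratio of 0.907.

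The order of the genes by level differed between the libraries. From highest to lowest it was Rtp4, Lgals3bp, Xaf1, Samhd1 and Ifi44 in naive cells, and Lgals3bp, Rtp4, Xaf1, Ifi44 and Samhd1 in pretreated cells. Lgals3bp had 0.300 of the FPKM of Rtp4 in the naive library and 2.60 times as much in the pretreated library. Ifi44 had 0.429 of the FPKM of Samhd1 in the naive library and 5.29 times as much in the pretreated library. Summed over the 5 genes, the level came to 339.9 FPKM in the naive and 1702 FPKM in the pretreated library. The order holds per length of transcript for whole-transcript libraries. The series is titled as RNA-seq while each sample is described as scTSS-seq, and the assay could not be checked on reads.

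In the authors' deposited table, all 5 genes were tested and 3 were called higher, against 3.91% of the 13388 loci tested; 0 were called lower, against 11.9%. The authors' deposited table lists the q-values of Lgals3bp, Ifi44 and Xaf1 as 0. In the authors' deposited table the q-value was 0.247 for Rtp4 and 0.764 for Samhd1, and neither was called. That test compares the reads of 2 libraries, not the conditions, and a q-value above the threshold does not show that Rtp4 or Samhd1 was equal in both states.

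Compared with loci of like level, the genes fell into the same arrangement. Loci of like level were those whose mean FPKM lay within 2-fold of that of the gene. The change of Lgals3bp ranked 3 of 311 such loci, whose 95th percentile was 1.31, and 6.11% of these loci were at least 2-fold higher. Ifi44 ranked 13 of 1065, with a 95th percentile of 0.87 and 3.38% at least 2-fold higher. Xaf1 ranked 10 of 607, with a 95th percentile of 0.92 and 4.12% at least 2-fold higher. These 3 genes thus lay far above the 95th percentile of their level.

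Rtp4 ranked 29 of 400 loci of like level, under their 95th percentile of 1.17 and above their upper quartile of 0.16. Samhd1 ranked 982 of 2016, between quartiles of -0.51 and 0.17. The number of other loci with a like level and a change within 0.25 was 753 for Samhd1, 23 for Rtp4, 2 each for Ifi44 and Xaf1, and 0 for Lgals3bp.

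**Figure D2:**
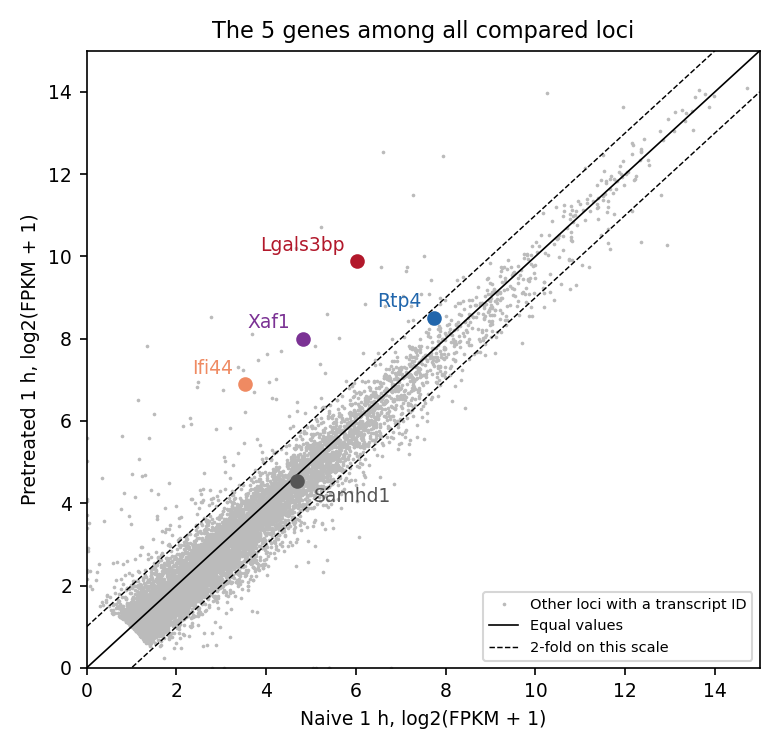
Levels in the naive (horizontal) and the pretreated library (vertical), both as log2(FPKM + 1), for 9227 compared loci with a transcript ID (grey) and the 5 genes (coloured); the solid line marks equal values and the dashed lines 2-fold. Lgals3bp, Xaf1 and Ifi44 are among the 222 loci (2.41%) at least 2-fold higher, above the upper dashed line. Rtp4 lies inside the upper dashed line and Samhd1 in the middle of the cloud.

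**Figure D3:**
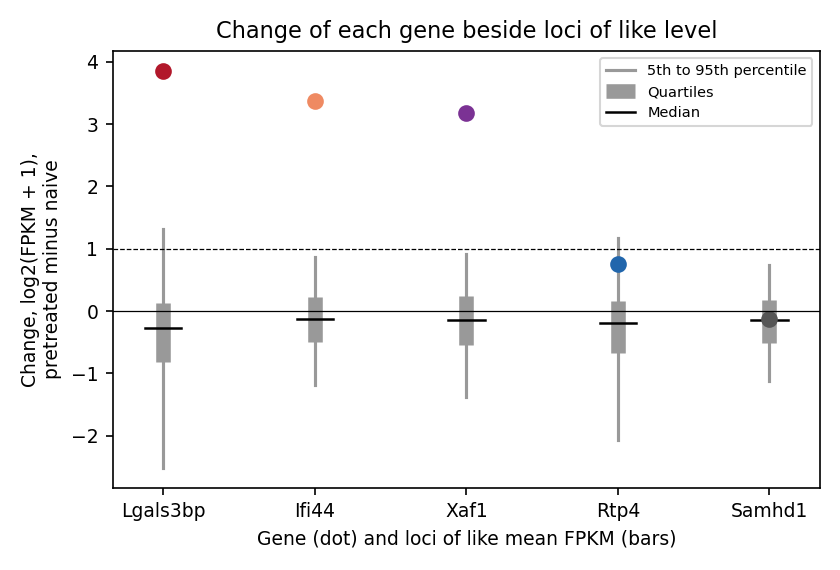
Change of each gene (dot; log2(FPKM + 1), pretreated minus naive) beside all compared loci of like mean FPKM, shown by their median (black line), quartiles (thick bar) and 5th to 95th percentile (thin line); the dashed line is 2-fold. The dots of Lgals3bp, Ifi44 and Xaf1 at 3.86, 3.37 and 3.18 lie above the 95th percentiles, Rtp4 at 0.76 lies under its own, and Samhd1 lies on the median.

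The surroundings of each gene were described by their own loci. Within 250 kb of either end, 18 other loci with a transcript ID and a mean of at least 1 FPKM were found, with changes from -1.09 to 0.53 and a median of -0.01. Of these 18 loci, 0 were at least 2-fold higher and 1 was at least 2-fold lower, against 2.41% and 4.24% of all compared loci with a transcript ID. With so few neighbours these counts are near the background and set the regions apart from no other. Lgals3bp had 4 such neighbours, with changes from -0.67 to 0.26, the nearest of which lies 4.3 kb away with naive and pretreated values of 7.32 and 8.75 FPKM. Xaf1 had 4, with changes from -0.19 to 0.20. Rtp4 had 2, with changes of -0.10 and 0.43, and the table gives both the same span.

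Ifi44 had 1 such neighbour, and it went the other way. XLOC_017465, at chromosome 3 from 151460459 to 151500536, had naive and pretreated values of 8.03 and 3.23 FPKM, a change of -1.09. The authors' deposited table gives it a q-value of 0.00015. Samhd1, itself at -0.13, had 7 neighbours with changes from -0.93 to 0.53. The authors' deposited table calls 2 of these lower and 0 higher, against 11.9% and 3.91% of all loci tested. Unlike the 7 neighbours, the loci tested include some without a transcript ID or with a mean under 1 FPKM. With only 7 loci, the counts of 2 and 0 do not set the region apart. None of the 5 gene loci overlaps another locus of the table.

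**Figure D4:**
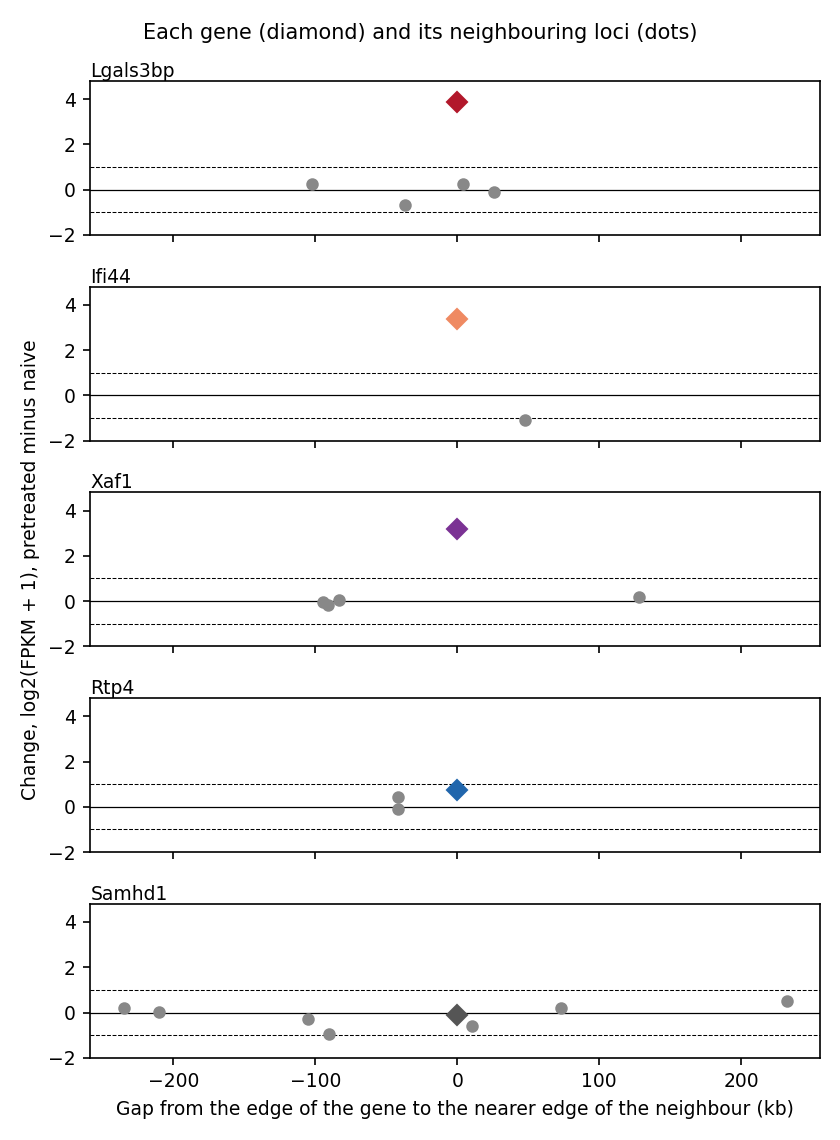
Change (log2(FPKM + 1), pretreated minus naive) of each gene (diamond at 0) and of the neighbouring loci with a transcript ID within 250 kb (dots), by the gap in kb to the edge of the gene; dashed lines mark 2-fold. The diamonds of Lgals3bp, Ifi44 and Xaf1 stand alone above the upper dashed line, and 1 neighbour, beside Ifi44, lies under the lower one.

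The names rest on position and were checked by span. The deposited spans of 19039 bp for Ifi44, 12131 bp for Xaf1, 9187 bp for Lgals3bp and 37694 bp for Samhd1 stand beside GENCODE M21 gene spans of 19039, 12105, 9342 and 37733 bp on the same chromosomes of build GRCm38. For Rtp4 the deposited span of 12516 bp is 13.3% of the GENCODE span of 93932 bp, so span is no check of that name. The fibroblast markers and a list of 43 other interferon response genes could not be looked up, since 0 of 38980 transcript IDs were found in the name tables used here.

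The weight of 1 read was inferred from low values. Where a locus is listed at 0 in one library, some deposited p-values equal those of 1 to 4 reads in the other. On that reading, the FPKM of 1 read was 2.03 times as high in the pretreated as in the naive library, over 14 pretreated loci. The naive value at each of their spans was interpolated from naive loci of other spans. A ratio of 2.03 would put the pretreated depth at 0.493 of the naive depth only if no other scaling between the libraries was applied. Whether any was applied is not stated. At the longest such loci 1 read was worth 0.0670 FPKM in the naive library (622 bp) and 0.150 FPKM in the pretreated library (583 bp). The lowest value of the 5 genes was 157 times this in the naive library (Ifi44) and 148 times in the pretreated library (Samhd1). The longest transcript of each gene in GENCODE M21 is longer than these loci, from 1859 bp for Rtp4 to 4064 bp for Ifi44, and on such a transcript 1 read is worth less.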

How the data were processed

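Poly(A) RNA of MEFs was sequenced. The authors deposited 1 table with an FPKM value per locus for each of 2 libraries, and a p-value and a q-value per locus. Per the file headers it has the layout of a Cuffdiff table; TopHat, Cufflinks 1.2.1 and build mm9 are named in the submitters' processing notes. The annotation and any scaling between libraries are not given in the sources used here. Columns were matched to libraries by the sample names in each row.

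Genes were found by overlap with fixed mm9 windows. The members and lists were chosen with earlier results of these data known. Deposited starts were raised by 1, because end minus start equalled a GENCODE transcript span at 21.6% of loci with a transcript ID, against 11.9% with 1 added. Changes are differences of log2(FPKM + 1); 24 loci of failed or HIDATA status and loci with a mean under 1 FPKM were left out. With 1 library per group no test was run. Named were the 5 genes and neighbours past 2-fold, up to 2 in each direction. The fold call was run on simulated data without a pseudocount (Python 3.11.15, pandas 2.3.3). The planted changes lay far past 2-fold with little scatter, so this checks the arithmetic only and not how well smaller changes are found. Alternatives were other pseudocounts, centring, filters and thresholds.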

Additional observations from a re-analysis of the deposited data

How the results depend on the processing

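The count of 3 genes at least 2-fold higher was the same under all 8 alternatives tried, including a 4-fold threshold. The 2 changes of filter among these could not alter it, because the lowest value of any of the 5 genes was 10.6 FPKM. With pseudocounts of 0.1, 5 and none, the log2 change was 3.88, 3.78 and 3.88 for Lgals3bp, 3.47, 2.98 and 3.48 for Ifi44, 3.22, 3.01 and 3.23 for Xaf1, 0.76, 0.75 and 0.77 for Rtp4, and -0.14, -0.12 and -0.14 for Samhd1. Minus the median of all compared loci and of those with a transcript ID, it was 4.02 and 4.0 for Lgals3bp, 3.52 and 3.50 for Ifi44, 3.34 and 3.31 for Xaf1, 0.92 and 0.90 for Rtp4, and 0.02 and 0.00 for Samhd1, whose sign thus depends on centring. The share of all loci at least 2-fold higher, 2.83%, was 4.55%, 1.42% and 4.77% with these pseudocounts, 4.14% and 3.95% with the 2 centrings, 1.79% without a filter, 3.24% at a mean of at least 5 FPKM, 0.968% at 4-fold and 2.41% with a transcript ID. Chosen after seeing the data, a reach of 500 kb gave 34 neighbours, 0 of them at least 2-fold higher and 4 lower. Among all compared loci with a transcript ID the shares were 2.41% and 4.24%. Neighbours that share a span are counted separately, and 1 of the 4 is such a locus near Rtp4. The difference from these shares was not tested. Also chosen after seeing the data, no filter gave 34 neighbours at 250 kb, 0 higher and 1 lower. No replicate could be left out. No paired analysis was possible because there is a single library in either group. The absolute depth is unknown; 1 read was inferred to be worth 2.03 times as much FPKM in the pretreated library, and unequal depth and unequal scaling cannot be told apart.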
